A study of Arabidopsis thaliana with 12 samples.

Results

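The transcripts described here are 40 genes of the Arabidopsis cell cycle machinery, chosen by gene identifier: 9 A-type cyclins, 9 B-type cyclins, 10 D-type cyclins, the kinase CDKA-1, 4 B-type cyclin-dependent kinases and the 7 KRP inhibitors. They were taken from 32824 genes listed for each of 12 RNA-seq libraries of whole seedlings. Gene names follow the hyphenated form that most of the gene tables use, so that CYCD3-2 is the gene otherwise written with a semicolon. The groups were *rev-5* in WL+FR, *rev-5* in WL, *wox4* in WL+FR, *wox4* in WL, Col-0 in WL+FR and Col-0 in WL, with 2 libraries each. WL is continuous white light. WL+FR is white light supplemented with far-red light, which simulates the shade of neighboring plants, and these seedlings had been started in WL before they were moved. Col-0 is the wild type accession. *rev-5* carries an amino acid substitution in REVOLUTA (REV), a class III HD-ZIP transcription factor, and *wox4* is a T-DNA insertion line of the homeobox gene *WOX4*, and each mutant is represented by a single allele.

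Cyclins are the activating partners of cyclin-dependent kinases (CDKs). In plants D-type cyclins with CDKA-1 drive the entry into DNA replication by phosphorylation of the retinoblastoma protein, A-type cyclins act from S phase onwards, and B-type cyclins with the plant-specific B-type CDKs act at the passage into mitosis. The KRP proteins bind cyclin and CDK complexes and inhibit them, and weak overexpression of *KRP2* is known to increase endoreduplication, the replication of DNA without division. In seedlings, shade is best known for elongating hypocotyls, a response that rests mainly on cell expansion. The A- and B-type cyclins and the B-type CDKs are called mitotic genes in the following and make up 22 of the 40.

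The libraries were of similar quality. Within a group log2 levels of the tested genes correlated at a Pearson r of 0.971 to 0.976 over 6 pairs, against 0.951 to 0.972 over 60 pairs from different groups. The relative depth read from the deposited bounds was 0.904 to 1.003, and 11663 to 11933 genes were listed at 0. The labels were checked with the mutated genes. *REV* stood at 6.0 to 7.82 TPM in all libraries, which does not test a substitution allele. *WOX4* stood at 146 and 149 TPM in *wox4* WL+FR, 113 and 112 TPM in *wox4* WL, 2.82 and 3.93 TPM in Col-0 WL+FR and 1.92 and 3.05 TPM in Col-0 WL. *WOX4* was thus more abundant, not less, in the mutant, which goes against a loss of transcript, so that its libraries are called the libraries labelled *wox4* or simply *wox4*. Whether the full-length transcript was present was not tested.

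The genomic sequence upstream of 4 members is shown first, because mitotic genes are known to carry MSA elements, short sites bound by MYB3R factors, whose core is AACGG, and because results turn on these 4: a B-type cyclin that rose in WL+FR, the B-type cyclin with the highest level, the KRP inhibitor with the largest rise and the D-type cyclin with the largest fall. Each window holds the 250 bases before the annotated gene start in the TAIR10.1 genome and is written 5′ to 3′ on the strand of the gene. The positions are chr3:3627274-3627523 (minus strand), chr5:1861704-1861953 (minus strand), chr3:18800056-18800305 (plus strand) and chr5:26835889-26836138 (plus strand). Capitals mark the core in either orientation, AACGG or CCGTT.
CYCB1-3: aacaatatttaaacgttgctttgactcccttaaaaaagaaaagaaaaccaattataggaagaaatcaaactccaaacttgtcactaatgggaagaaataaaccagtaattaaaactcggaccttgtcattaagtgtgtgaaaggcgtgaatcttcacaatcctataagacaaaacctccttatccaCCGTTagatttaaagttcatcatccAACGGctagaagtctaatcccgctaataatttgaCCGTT
CYCB1-2: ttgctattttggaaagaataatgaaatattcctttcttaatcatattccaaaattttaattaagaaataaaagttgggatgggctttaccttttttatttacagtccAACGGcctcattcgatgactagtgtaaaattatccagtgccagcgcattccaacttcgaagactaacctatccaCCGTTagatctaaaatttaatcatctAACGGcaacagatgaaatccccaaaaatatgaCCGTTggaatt
KRP2: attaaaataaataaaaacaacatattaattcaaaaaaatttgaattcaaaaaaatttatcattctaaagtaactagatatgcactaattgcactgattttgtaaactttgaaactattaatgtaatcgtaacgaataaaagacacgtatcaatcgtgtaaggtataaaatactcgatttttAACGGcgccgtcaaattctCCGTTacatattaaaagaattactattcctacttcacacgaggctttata
CYCD3-2: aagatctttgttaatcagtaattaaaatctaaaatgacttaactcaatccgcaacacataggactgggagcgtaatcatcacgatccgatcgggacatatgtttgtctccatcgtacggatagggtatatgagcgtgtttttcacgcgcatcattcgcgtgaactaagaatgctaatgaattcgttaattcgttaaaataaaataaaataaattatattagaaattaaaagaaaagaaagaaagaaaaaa

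*CYCB1-2* held 4 cores, *CYCB1-3* held 3 and *KRP2* held 2, while the window of *CYCD3-2* held none. In *CYCB1-2* the core nearest to the gene start ended 7 bases before it and the farthest began 143 bases before it. Among the 39 members whose windows were searched, the core was present in 11 of 21 mitotic genes (52.4%), in 1 of 10 D-type cyclins (10%) and in 4 of 7 KRP genes (57.1%), compared with 5645 of 27436 protein-coding genes (20.6%). At least 2 cores were present in 10 of 21 mitotic genes, 3 of 7 KRP genes and no D-type cyclin, against 994 of 27436 protein-coding genes. E2F sites, searched as TTTCCCGC and TTTGGCGC on both strands, are elements of genes expressed in S phase. They were present in 1 member, the D-type cyclin *CYCD3-3*, and in 0.959% of all windows. The G-box CACGTG, a site bound by PIF factors of light signaling, was searched after the values had been seen and was present in *CYCB2-3* and *KRP1* only among the members, and in 6.49% of all windows. These letter matches describe the windows. They do not show binding, and a window without a match says nothing about the factor.

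The level of the members was measured in TPM, a transcript level scaled to gene length and to the total of the library, which can be compared between genes. Several D-type cyclins were among the most abundant members, while *CYCD5-1*, *CYCD4-1* and *CYCD4-2* averaged 4.08, 1.66 and 0.978 TPM. *CYCD3-2*, a D-type cyclin of the cytokinin-responsive CYCD3 group, averaged 48.6 TPM over the 12 libraries, *CYCD1-1* 27.2 TPM, *CYCD3-1* 23.6 TPM, *CYCD2-1* 19.6 TPM and *CYCD3-3* 17.4 TPM. The KRP inhibitors *KRP2* and *KRP4* were of the same order, at 27.6 and 22.9 TPM, and the other 5 KRP genes averaged 2.40 to 7.06 TPM. Among mitotic genes, *CYCB1-2* had the highest mean, 16.3 TPM, followed by the A-type cyclin *CYCA3-2* at 14.1 TPM and *CDKB1-1* at 9.65 TPM. *CDKA-1* averaged 6.70 TPM, with a range of 5.28 to 8.14 TPM.

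Genes were tested when their mean was at least 0.5 TPM, which 34 of the 40 members passed (18 mitotic genes, 8 D-type cyclins, *CDKA-1* and all 7 KRP genes) and 20020 genes in all. The 6 members under this minimum were *CYCA1-2* at a mean of 0.483 TPM, *CYCB2-1* at 0.422 TPM, *CYCA2-1* at 0.328 TPM, *CYCD7-1* at 0.112 TPM, *CYCB3-1* at 0.0555 TPM and *CYCD6-1*, which was listed at 0 in all 12 libraries. *CYCD6-1*, a cyclin of formative root divisions, overlaps its neighbour AT4G03260 over 847 bases, and that neighbour stood at 70.4 to 90 TPM, so that a value of 0 need not mean that the transcript was lacking. The deposited bounds place 353 to 566 fragments behind each value of *CYCD3-2* and 35 to 95 behind each value of *CDKB2-1*, when they are read as 2 standard deviations of counting error. For *KRP7* this number was 4 to 28, and the values of the lowest members rest on even fewer fragments.

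**Figure D1:**
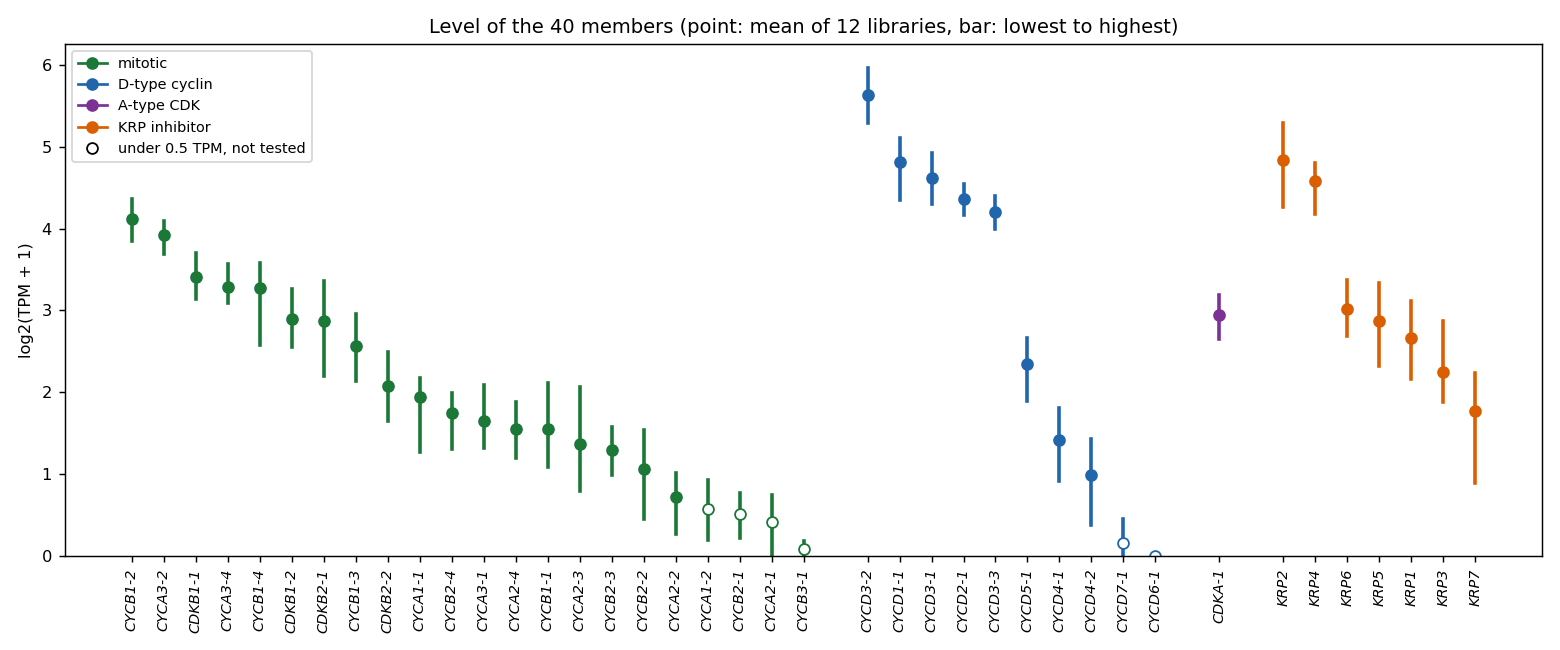
Levels of the 40 members as log2(TPM + 1), with the mean of 12 libraries as a point and the lowest to highest library as a bar, ordered within the 4 classes by mean level. *CYCD3-2* is the highest of all at a mean of 48.6 TPM, *KRP2* the highest inhibitor at 27.6 TPM, and the open points are the 6 members under 0.5 TPM that were not tested.

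The first question was which members respond to simulated shade. Over the mean of the 3 genotypes, 8 of the 34 tested members differed between WL+FR and WL at an adjusted p under 0.05, 6 of them higher and 2 lower in WL+FR. Of all 20020 tested genes 35.3% did, 28.1% higher and 7.19% lower, so that the share among the members was not above that of all genes. *CDKB2-1*, *KRP2*, *KRP5*, *CYCB1-3*, *CYCD1-1* and *KRP4* rose, and *CYCD3-2* and *CYCD3-3* fell. The median log2 fold change was 0.07 over 18 mitotic genes, -0.08 over 8 D-type cyclins and 0.17 over 7 KRP genes, compared with 0.11 over all tested genes. In RNA of whole seedlings, fewer cells of a kind and less RNA per cell cannot be told apart.

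The balance of rises and falls depended on the scaling of the libraries. With quantile normalization 9 members passed, 3 higher (*CDKB2-1*, *CYCD1-1*, *KRP2*) and 6 lower (*CYCD3-1*, *CYCD3-2*, *CYCD3-3*, *CYCA2-3*, *CYCA3-2*, *CYCB1-1*), and of all genes called 48.8% were higher in place of 79.6%. The median of all tested genes was then -0.02 in place of 0.11. Relative to that median of 0.11, *CDKB2-1* changed by 0.48, *KRP2* by 0.45, *KRP5* by 0.29, *CYCB1-3* by 0.28, *CYCD1-1* by 0.28, *KRP4* by 0.07, *CYCD3-3* by -0.26 and *CYCD3-2* by -0.44 on the log2 scale. *KRP4* no longer passed after quantile normalization (log2 fold change 0.04, adjusted p = 0.572).

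**Figure D2:**
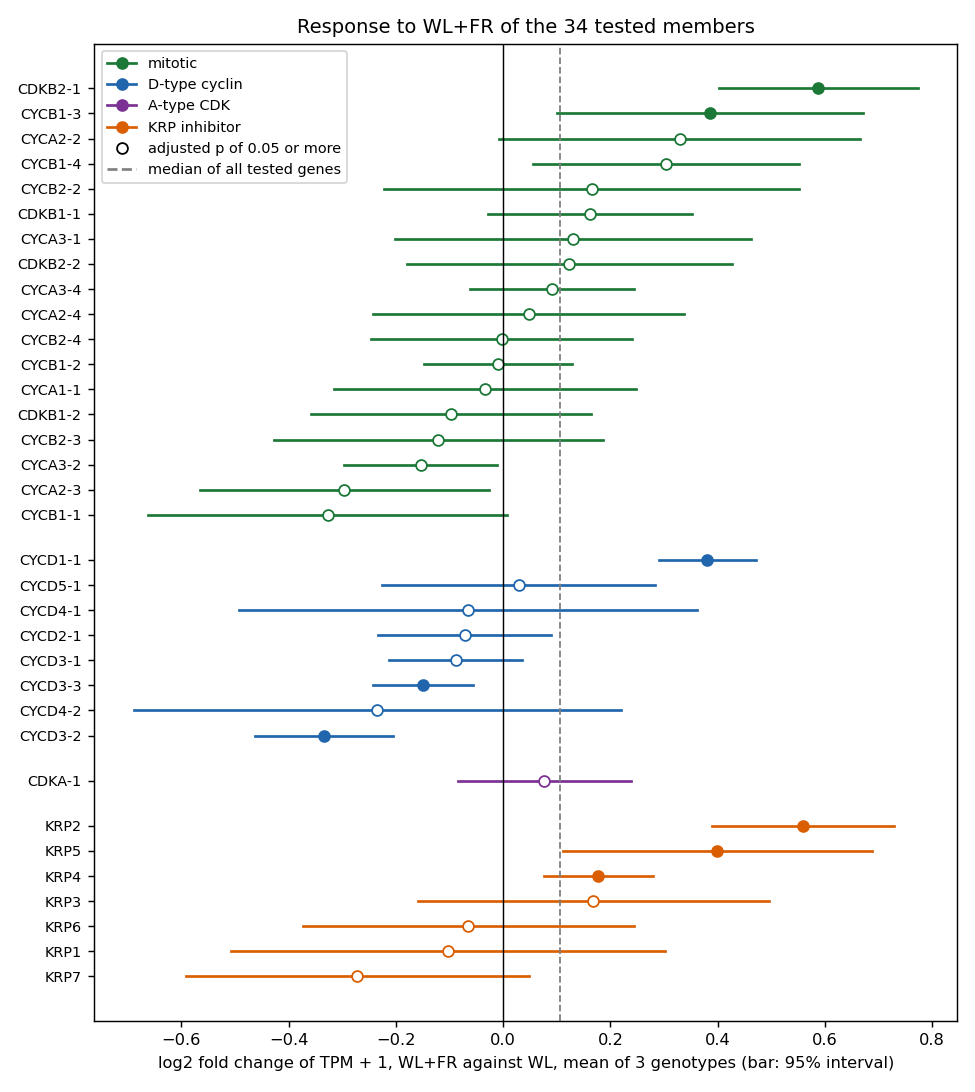
Log2 fold change of TPM + 1 in WL+FR against WL, mean of the 3 genotypes, for the 34 tested members, with 95% intervals and filled points for an adjusted p under 0.05. The dashed line is the median of all tested genes at 0.11, and *CDKB2-1* at 0.59 and *KRP2* at 0.56 lie farthest to the right and *CYCD3-2* at -0.33 farthest to the left.

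*CDKB2-1* (AT1G76540, chr1:28720328-28722550, TAIR10 like all positions), a B-type CDK needed at the passage into mitosis and for the organization of the shoot meristem, had the largest rise among the members. In *rev-5* it stood at 9.28 and 7.83 TPM in WL+FR and 4.52 and 3.60 TPM in WL. In *wox4* it stood at 8.60 and 8.36 TPM in WL+FR and 4.56 and 5.45 TPM in WL. Col-0 gave 6.08 and 6.54 TPM in WL+FR and 4.996 and 5.91 TPM in WL. All 6 WL+FR libraries were above all 6 WL libraries, which also held for *CYCD1-1* and *KRP2* among the members and for 12.4% of all tested genes. The log2 fold change over the 3 genotypes was 0.59 ± 0.08 (SE, n = 6 libraries per light, limma, adjusted p = 0.000446). The rise in *rev-5* alone was 0.92 ± 0.14 (adjusted p = 0.00261). That in *wox4* was 0.66 ± 0.14 (adjusted p = 0.0113), and the value in Col-0 was 0.18 ± 0.14 (adjusted p = 0.450). When only the 4 libraries of a genotype were fitted, neither call held (adjusted p = 0.072 in *rev-5* and 0.0625 in *wox4*). The call in *wox4* was also lost without *wox4* WL replicate 5 (adjusted p = 0.0794), *wox4* WL+FR replicate 7 (adjusted p = 0.0653) or *wox4* WL+FR replicate 8 (adjusted p = 0.0544). Its paralogue *CDKB2-2*, at a mean of 3.22 TPM, had a log2 fold change of 0.12 and did not pass, and *CDKB1-1* (AT3G54180, chr3:20059671-20061488), the most abundant CDK, had 0.16 ± 0.09 (adjusted p = 0.173). The values of *CDKB1-1* in *rev-5* were 10.5 and 7.94 TPM in WL+FR and 8.37 and 7.79 TPM in WL. In *wox4* they were 9.84 and 10.08 TPM in WL+FR and 9.11 and 8.60 TPM in WL, and in Col-0 12.03 and 11.1 TPM in WL+FR and 11.6 and 8.86 TPM in WL. The light groups of *CDKB1-1* overlapped in *rev-5* and Col-0 and were apart in *wox4*.

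Among cyclins of the B class, *CYCB1-3* (AT3G11520, chr3:3625286-3627273) rose by 0.39 ± 0.13 on the log2 scale over the 3 genotypes (adjusted p = 0.0405). Its libraries of *rev-5* stood at 5.30 and 5.19 TPM in WL+FR and 4.33 and 3.38 TPM in WL. The libraries labelled *wox4* stood at 6.75 and 6.72 TPM in WL+FR and 3.42 and 3.92 TPM in WL. In Col-0 the values were 4.46 and 5.53 TPM in WL+FR and 3.47 and 6.403 TPM in WL, so that the WL libraries of Col-0 lay on both sides of those in WL+FR. This call held only when Col-0 WL replicate 2, Col-0 WL+FR replicate 3 or *rev-5* WL replicate 9 was the library left out, and each of the other 9 omissions raised the adjusted p to between 0.0613 and 0.104. Without the libraries labelled *wox4* the log2 fold change was 0.21 (adjusted p = 0.449). Within *wox4* it was 0.73 ± 0.22 (adjusted p = 0.0464), and 10 of 12 omissions ended that call, with an adjusted p of 0.0586 to 0.192, as did no filter, FPKM, quantile normalization or no trend (0.0615 to 0.131). *CYCB1-2* (AT5G06150, chr5:1859279-1861703), the most abundant B-type cyclin, had 13.4 and 14.2 TPM in *rev-5* WL+FR and 14.3 and 13.8 TPM in *rev-5* WL. It had 17.8 and 14.8 TPM in *wox4* WL+FR and 16.1 and 17.6 TPM in *wox4* WL. Col-0 had 18.9 and 18.5 TPM in WL+FR and 16.7 and 19.6 TPM in WL. The light groups of *CYCB1-2* overlapped in all 3 genotypes, and its log2 fold change was -0.01 with a 95% interval of -0.15 to 0.13.

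The A-type cyclins showed no member past the test. *CYCA3-2* (AT1G47210, chr1:17300691-17302914), the most abundant, had 11.97 and 11.9 TPM in WL+FR and 12.4 and 16.1 TPM in WL for *rev-5*. The libraries labelled *wox4* had 15.3 and 15.5 TPM in WL+FR and 14.9 and 14.6 TPM in WL. Col-0 had 12.1 and 12.96 TPM in WL+FR and 16.0 and 15.2 TPM in WL, which did not overlap. Over the 3 genotypes the log2 fold change of *CYCA3-2* was -0.15 ± 0.06 (adjusted p = 0.0905), and it passed with quantile normalization (-0.28, adjusted p = 0.00723) or without *rev-5* WL replicate 9 (-0.21, adjusted p = 0.0092). *CYCA2-3*, which restrains endoreduplication, had -0.30 (adjusted p = 0.0856), and *CYCB1-1*, a widely used marker of cells at the passage into mitosis, had a log2 fold change of -0.33. In the other direction *CYCA2-2* had a log2 fold change of 0.33 and *CYCB1-4* of 0.30 (adjusted p = 0.0587). The summed level of the 22 mitotic genes was 89.2 to 104 TPM in WL+FR and 81.1 to 105 TPM in WL, and the ranges overlapped. Within *rev-5* the sum was 89.2 and 91.0 TPM in WL+FR and 81.1 and 84.3 TPM in WL. Within *wox4* it was 104 and 104 TPM in WL+FR and 92.1 and 93.3 TPM in WL. In both mutants WL+FR was thus higher without overlap, whereas Col-0, at 103 and 101 TPM in WL+FR and 99.5 and 105 TPM in WL, overlapped. The median log2 fold change of the 18 tested mitotic genes was -0.01 in *rev-5*, 0.02 in *wox4* and 0.10 in Col-0. Over all tested genes it was 0.11, 0.13 and 0.08, and -0.01, -0.02 and -0.02 with quantile normalization. A difference of these sums between genotypes was not tested.

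D-type cyclins moved in both directions. *CYCD1-1* (AT1G70210, chr1:26439556-26443007), a D-type cyclin known from the onset of division in germinating seeds, rose. It stood at 31.1 and 28.3 TPM in WL+FR and 20.3 and 19.4 TPM in WL for *rev-5*. For *wox4* it was 33.5 and 32.7 TPM in WL+FR and 24.98 and 24.6 TPM in WL. For Col-0 it was 28.6 and 31.1 TPM in WL+FR and 26.1 and 26.2 TPM in WL. The WL+FR libraries were higher in each genotype and did not overlap with WL, with a log2 fold change of 0.38 ± 0.04 over the 3 genotypes (adjusted p = 7.15e-05). Within genotypes the value was 0.55 ± 0.07 in *rev-5* (adjusted p = 0.000768), 0.40 ± 0.07 in *wox4* (adjusted p = 0.00346) and 0.18 ± 0.07 in Col-0 (adjusted p = 0.110).

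*CYCD3-2* (AT5G67260, chr5:26836139-26839597) fell. In *rev-5* it stood at 42.9 and 38.0 TPM in WL+FR and 48.0 and 44.9 TPM in WL. In libraries labelled *wox4* it stood at 38.8 and 46.7 TPM in WL+FR and 59.4 and 53.1 TPM in WL. In Col-0 it stood at 43.1 and 47.0 TPM in WL+FR and 61.2 and 59.5 TPM in WL. The light groups were apart in each genotype, but the *rev-5* WL library at 44.9 TPM lay below the Col-0 WL+FR library at 47.0 TPM. The log2 fold change was -0.33 ± 0.06 over the 3 genotypes (adjusted p = 0.00151), -0.19 ± 0.10 in *rev-5* (adjusted p = 0.248), -0.39 ± 0.10 in *wox4* (adjusted p = 0.0231) and -0.42 ± 0.10 in Col-0 (adjusted p = 0.0178). *CYCD3-2* was the only member past the test in Col-0, where 17.7% of all genes passed, 4.41% lower. That call was lost without Col-0 WL replicate 1 (adjusted p = 0.0960), Col-0 WL replicate 2 (adjusted p = 0.0715) or Col-0 WL+FR replicate 3 (adjusted p = 0.109), and with no filter on low genes (adjusted p = 0.0658). The call in *wox4* was lost without *wox4* WL replicate 5 (adjusted p = 0.146) or *wox4* WL+FR replicate 7 (adjusted p = 0.153), and with no filter, no trend or only the groups compared (adjusted p of 0.0521 to 0.13).

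The other CYCD3 cyclins, which together with *CYCD3-2* are known to set cell number in leaves and in the cambium, had smaller values. *CYCD3-3* (AT3G50070, chr3:18565134-18566834) stood at 15.0 and 15.0 TPM in WL+FR and 18.4 and 17.5 TPM in WL for *rev-5*. It stood at 17.1 and 17.0 TPM in WL+FR and 16.9 and 17.5 TPM in WL for *wox4*. It stood at 16.5 and 17.8 TPM in WL+FR and 20.17 and 19.4 TPM in WL for Col-0. WL+FR was lower in *rev-5* and Col-0, and in *wox4* the libraries overlapped. The log2 fold change of *CYCD3-3* was -0.15 ± 0.04 over the 3 genotypes (adjusted p = 0.0191). *CYCD3-1* (AT4G34160, chr4:16357421-16359565) had -0.09 ± 0.06 (adjusted p = 0.253), and passed only after quantile normalization (-0.23, adjusted p = 0.0152). In *rev-5* it stood at 20.8 and 19.0 TPM in WL+FR and 21.1 and 18.7 TPM in WL. In *wox4* it stood at 24.3 and 23.9 TPM in WL+FR and 27.2 and 24.0 TPM in WL, and in Col-0 at 23.6 and 24.9 TPM in WL+FR and 26.0 and 29.4 TPM in WL. The light groups of *CYCD3-1* overlapped in the mutants and were apart in Col-0. Its gene overlaps AT4G34150 over 40 bases. The remaining tested D-type cyclins, *CYCD2-1*, *CYCD4-1*, *CYCD4-2* and *CYCD5-1*, had log2 fold changes of -0.07, -0.07, -0.24 and 0.03 and did not pass.

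As a share of all D-type cyclin transcripts, *CYCD1-1* took 21.0 to 23.6% in the WL+FR libraries and 15.1 to 17.0% in the WL libraries, whereas *CYCD3-2* took 27.4 to 32.6% in WL+FR and 35 to 38.0% in WL. The shares of these cyclins did not overlap between lights, and those of *CYCD2-1*, *CYCD3-1* and *CYCD3-3* did. Shares within a set do not depend on a scaling factor common to a library. The summed level of the 10 D-type cyclins was 127 to 147 TPM in WL+FR and 128 to 162 TPM in WL.

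Among 7 tested KRP inhibitors, 3 rose over the 3 genotypes, where 28.1% of all tested genes did. With quantile normalization only *KRP2* of these kept its call. *KRP2* (AT3G50630, chr3:18800306-18801595), an inhibitor known to restrain lateral root initiation, stood at 38.2 and 34.4 TPM in WL+FR and 23.1 and 25.9 TPM in WL for *rev-5*. The values for *wox4* were 33.4 and 36.9 TPM in WL+FR and 18.2 and 22.5 TPM in WL. Those for Col-0 were 27.2 and 28.7 TPM in WL+FR and 19.0 and 24.1 TPM in WL. Every WL+FR library was above every WL library, at a log2 fold change of 0.56 ± 0.08 (adjusted p = 0.000335). Within genotypes it was 0.55 ± 0.13 in *rev-5* (adjusted p = 0.0226), 0.77 ± 0.13 in *wox4* (adjusted p = 0.00319) and 0.37 ± 0.13 in Col-0 (adjusted p = 0.0887). The call in *rev-5* was lost when any of the 4 *rev-5* libraries was left out, at an adjusted p of 0.0597 to 0.138. It was also lost after quantile normalization (0.42, adjusted p = 0.0749), with no filter (adjusted p = 0.0818) and with only the groups compared (adjusted p = 0.0643). Without the libraries labelled *wox4* the mean response was 0.46 (adjusted p = 0.0112).

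*KRP4* (AT2G32710, chr2:13873362-13876737), which takes part in the control of cell size in the shoot meristem, stood at 23.4 and 23.5 TPM in WL+FR and 19.2 and 17.1 TPM in WL in *rev-5*. In *wox4* the values were 24.4 and 21.9 TPM in WL+FR and 22.8 and 22.2 TPM in WL. In Col-0 they were 26.9 and 25.6 TPM in WL+FR and 24.1 and 23.5 TPM in WL. The libraries of *wox4* overlapped between lights, and those of *rev-5* and Col-0 were higher in WL+FR. The log2 fold change of *KRP4* was 0.18 ± 0.05 over the 3 genotypes (adjusted p = 0.0129) and 0.35 ± 0.08 in *rev-5* (adjusted p = 0.0159), a call that was lost without *rev-5* WL replicate 10 (adjusted p = 0.0980), *rev-5* WL+FR replicate 11 (adjusted p = 0.0704) or *rev-5* WL+FR replicate 12 (adjusted p = 0.0791). With quantile normalization it was 0.23 (adjusted p = 0.132), and with only the groups compared the adjusted p was 0.107. *KRP4* overlaps *CYTB5-B* over 926 bases, at 21.2 to 33.1 TPM, so that reads of the overlap may be counted for either gene. The values of *KRP5* (AT3G24810, chr3:9060836-9062003), an inhibitor linked to hypocotyl growth, were 5.98 and 5.89 TPM in WL+FR and 6.78 and 4.01 TPM in WL in *rev-5*. They were 9.10 and 6.51 TPM in WL+FR and 5.70 and 4.95 TPM in WL in *wox4*. They were 7.89 and 8.36 TPM in WL+FR and 5.91 and 4.39 TPM in WL in Col-0. *KRP5* overlapped between lights in *rev-5* alone, with a log2 fold change of 0.40 ± 0.13 over the 3 genotypes (adjusted p = 0.0361), and 9 of 12 omissions of a library ended this call, at an adjusted p of 0.0552 to 0.101. It held when Col-0 WL replicate 1, *wox4* WL+FR replicate 8 or *rev-5* WL replicate 9 was left out.

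*KRP7* (AT1G49620, chr1:18365336-18366744) passed the test in *rev-5*, where it stood at 0.852 and 1.51 TPM in WL+FR and 3.72 and 2.85 TPM in WL. In *wox4* it stood at 2.14 and 2.98 TPM in WL+FR and 1.42 and 2.23 TPM in WL. In Col-0 it stood at 2.66 and 2.41 TPM in WL+FR and 2.41 and 3.65 TPM in WL. The *rev-5* groups did not overlap, and the lowest of the 12 values was 0.852 TPM in *rev-5* WL+FR, while the *wox4* WL libraries reached down to 1.42 TPM. The log2 fold change was -0.98 ± 0.25 in *rev-5* (adjusted p = 0.0281), 0.34 ± 0.25 in *wox4* (adjusted p = 0.398) and -0.17 ± 0.25 in Col-0 (adjusted p = 0.710). The call in *rev-5* rests on 4 to 28 fragments per library and was lost without *rev-5* WL replicate 9 (adjusted p = 0.143), *rev-5* WL replicate 10 (adjusted p = 0.0644) or *rev-5* WL+FR replicate 11 (adjusted p = 0.159). It was also lost with no filter (adjusted p = 0.0796) and with only the groups compared (adjusted p = 0.104). *KRP1*, *KRP3* and *KRP6* had log2 fold changes over the 3 genotypes of -0.10, 0.17 and -0.07 and did not pass. The summed level of the 7 KRP genes was 78.3 to 86.9 TPM in WL+FR and 61.6 to 71.8 TPM in WL, with no overlap, and *KRP2* made up 34.5 to 47.2% of it in WL+FR and 28.0 to 39.1% in WL. These sums were not adjusted for the median rise of 0.11 over all tested genes.

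**Figure D3:**
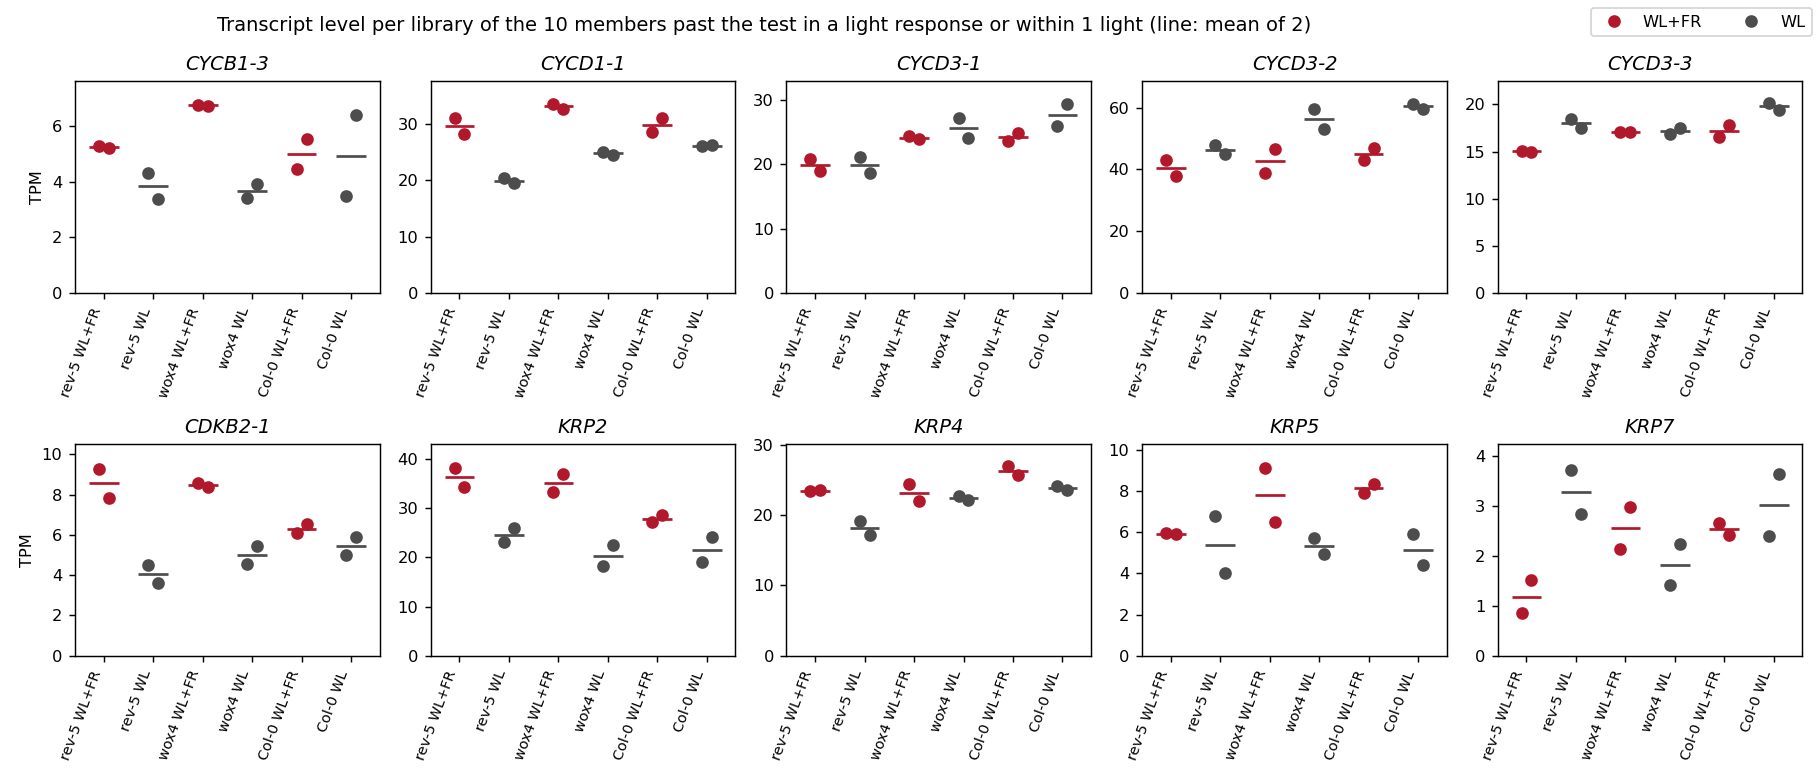
TPM in each of the 12 libraries for the 10 members past the test in a response to WL+FR or between a mutant and Col-0 within 1 light, with a line at the mean of each pair, WL+FR in red and WL in grey, from 0 on every axis. *CDKB2-1*, *CYCD1-1* and *KRP2* are higher in all WL+FR libraries than in all WL libraries, and *CYCD3-2* is lower in WL+FR within each genotype.

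Within single genotypes, 5 members passed in *rev-5* (4 higher and 1 lower, where of all genes 13.9% passed, 2.83% lower), 5 in *wox4* (4 higher and 1 lower, where 18.8% passed, 3.44% lower) and 1 in Col-0 (4 with quantile normalization). Of all genes called, 79.6% were higher in *rev-5*, 81.7% in *wox4* and 75.1% in Col-0, and with quantile normalization 50.5%, 51.7% and 51.6%. The median log2 fold change of the 34 members was -0.05 in *rev-5*, 0.02 in *wox4* and 0.07 in Col-0, against 0.11, 0.13 and 0.08 for all tested genes. Whether these responses differed between genotypes was tested as a difference of responses. No member passed for *rev-5* minus Col-0 (limma, 3 at an unadjusted p under 0.05, where of all genes 0.395% were called and 9.19% were under that unadjusted p) or for *wox4* minus Col-0 (limma, 2 at an unadjusted p under 0.05, with 0.105% and 6.93% of all genes). For *CDKB2-1* the difference was 0.74 ± 0.20 between *rev-5* and Col-0 (adjusted p = 0.268) and 0.48 ± 0.20 between *wox4* and Col-0 (adjusted p = 0.705). For *CYCD1-1* it was 0.37 ± 0.10 (adjusted p = 0.242) and 0.22 ± 0.10 (adjusted p = 0.718), and for *KRP7* -0.81 ± 0.35 (adjusted p = 0.521) and 0.51 ± 0.35 (adjusted p = 0.809). So a response past the test in one genotype and not in another is not shown to differ. All these differences share the Col-0 libraries.

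The second question was whether the mutants differed from Col-0. In WL, 3 of 34 members were lower in *rev-5* and none higher, where 4.67% of all genes passed, 2.06% lower. They were *CYCD1-1*, *CYCD3-1* and *KRP4*. *CYCD1-1* stood at 20.3 and 19.4 TPM in *rev-5* WL and 26.1 and 26.2 TPM in Col-0 WL, a log2 fold change of -0.38 ± 0.07 (adjusted p = 0.0149). *CYCD3-1* stood at 21.1 and 18.7 TPM in *rev-5* WL and 26.0 and 29.4 TPM in Col-0 WL (-0.46 ± 0.10, adjusted p = 0.0270). *KRP4* stood at 19.2 and 17.1 TPM in *rev-5* WL and 24.1 and 23.5 TPM in Col-0 WL (-0.37 ± 0.08, adjusted p = 0.0269). For each of the 3 the values of *rev-5* and Col-0 did not overlap, which follows largely from their choice by a test on the same libraries. These calls rest on each of the 4 libraries: without Col-0 WL replicate 1 or 2 or *rev-5* WL replicate 10 no member passed, without *rev-5* WL replicate 9 *KRP4* alone passed, and no member passed when only the 4 libraries were fitted. *CYCD3-1* was also lost without *wox4* WL+FR replicate 7 (adjusted p = 0.0509) or 8 (adjusted p = 0.0507), which enter through the shared spread, and with no filter (adjusted p = 0.0748). The rise of *CYCD1-1* in *rev-5* and its lower level in *rev-5* WL share the *rev-5* WL libraries.

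In WL+FR, no member differed between *rev-5* and Col-0 (limma, 7 at an unadjusted p under 0.05, where of all genes 3.54% were called and 17.0% were under that unadjusted p), and with quantile normalization 1 did. For *CYCD1-1* the values were 31.1 and 28.3 TPM in *rev-5* WL+FR and 28.6 and 31.1 TPM in Col-0 WL+FR, a log2 fold change of -0.01 with a 95% interval of -0.17 to 0.15. *CDKA-1* (AT3G48750, chr3:18071454-18074641), the kinase that partners the D-type cyclins, had 5.28 and 5.58 TPM in *rev-5* WL+FR and 8.14 and 7.90 TPM in Col-0 WL+FR (-0.49 ± 0.12, adjusted p = 0.0704), and *CYCB1-2* had a log2 fold change of -0.41 ± 0.11 (adjusted p = 0.0730). In the mean of both lights, 5 members were lower in *rev-5* and none higher, where 9.59% of all genes passed, 4.31% lower: *CYCB1-2* (-0.38 ± 0.08, adjusted p = 0.0136), *CYCD1-1* (-0.19 ± 0.05, adjusted p = 0.0386), *CYCD3-1* (-0.36 ± 0.07, adjusted p = 0.00942), *CYCD3-2* (-0.26 ± 0.07, adjusted p = 0.0472) and *KRP4* (-0.27 ± 0.06, adjusted p = 0.0162).

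Most members lay below Col-0 in *rev-5* whether or not they passed. The log2 fold change was negative for 27 of 34 members in WL and for 25 of 34 in WL+FR, with medians of -0.17 and -0.15 against 0.00 and 0.02 over all tested genes. All 8 tested D-type cyclins were negative in WL and 6 of 8 in WL+FR, as were 15 and 13 of 18 mitotic genes and 3 and 5 of 7 KRP genes. These signs come from the same 2 *rev-5* and 2 Col-0 libraries in each light, so that the members are not independent of each other. Some values were small against their SE, such as that of *CYCD2-1* in WL (-0.03 ± 0.12). The summed level of the mitotic genes was 89.2 and 91.0 TPM in *rev-5* WL+FR against 103 and 101 TPM in Col-0 WL+FR, and 81.1 and 84.3 TPM in *rev-5* WL against 99.5 and 105 TPM in Col-0 WL. The summed level of the D-type cyclins was 132 and 127 TPM in *rev-5* WL+FR against 137 and 147 TPM in Col-0 WL+FR, and 133 and 128 TPM in *rev-5* WL against 161 and 162 TPM in Col-0 WL. For the KRP genes the sum in WL was 68.6 and 66.3 TPM in *rev-5* and 67.7 and 71.2 TPM in Col-0, and did not stand apart.

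In the libraries labelled *wox4*, no member differed from Col-0 in WL (limma, 2 at an unadjusted p under 0.05, where of all genes 0.265% were called and 9.26% were under that unadjusted p). In WL+FR no member did either (limma, 5 at an unadjusted p under 0.05, with 1.05% and 14.5% of all genes). Of all genes called in WL+FR, 60.2% were higher in *wox4*, and 49.4% with quantile normalization. In the mean of both lights no member passed (limma, 2 at an unadjusted p under 0.05, with 2.14% and 16.3% of all genes). The medians over the 34 members were -0.08 in WL and 0.06 in WL+FR, against 0.00 and 0.05 over all tested genes. The mitotic genes summed to 104 and 104 TPM in *wox4* WL+FR against 103 and 101 TPM in Col-0 WL+FR, and to 92.1 and 93.3 TPM in *wox4* WL against 99.5 and 105 TPM in Col-0 WL.

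**Figure D4:**
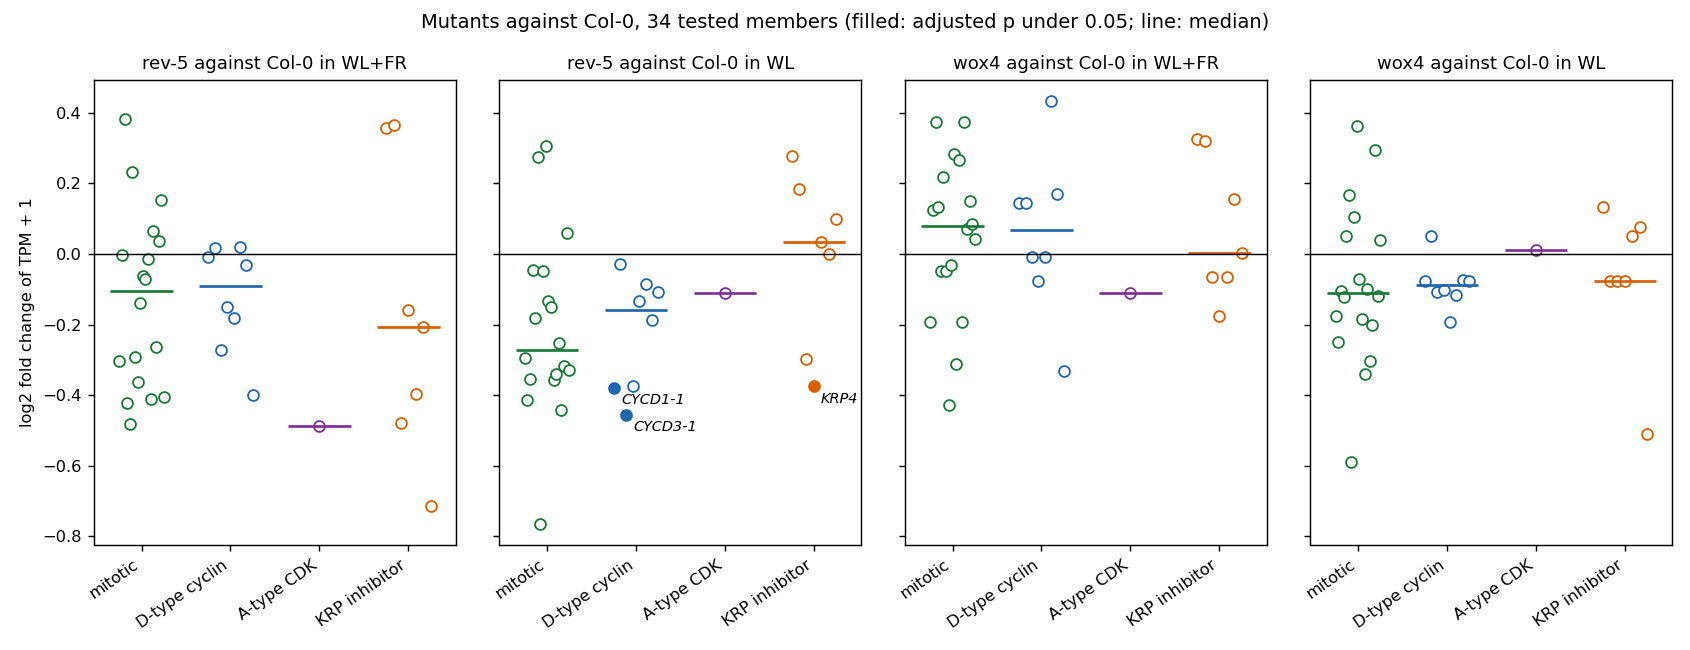
Log2 fold change of TPM + 1 in the mutants against Col-0 for the 34 tested members in 4 classes, with a line at the median and filled points for an adjusted p under 0.05. Most points lie below 0 in both lights in *rev-5*, and in WL in *wox4*. *CYCD1-1*, *CYCD3-1* and *KRP4* pass in *rev-5* in WL, whereas no member passes in *wox4*.

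Other genes of the cell cycle were looked at in 7 lists of 61 genes. Their counts over the 3 genotypes stand against 28.1% of all tested genes higher and 7.19% lower in WL+FR. Of the SIM and SMR proteins, a further family of CDK inhibitors, 3 of 8 tested genes rose and none fell, *SMR2* (0.40 ± 0.11, adjusted p = 0.0187), *SIM* (0.38 ± 0.04, adjusted p = 4.74e-05) and *SMR1* (0.14 ± 0.03, adjusted p = 0.00622). *SIM*, an inhibitor of division in trichomes, stood at 86.7 and 87.4 TPM in *rev-5* WL+FR and 74.3 and 64.7 TPM in *rev-5* WL, and at 89.7 and 95.3 TPM in Col-0 WL+FR and 68.2 and 67.3 TPM in Col-0 WL. The list summed to 229 to 253 TPM in WL+FR and 185 to 209 TPM in WL. Its median log2 fold change was 0.24, compared with 0.11 over all tested genes, and the 0.14 of *SMR1* lay close to the latter. How far the values of the 7 lists depend on the scaling of the libraries was not tested. Among 8 kinase partners and upstream kinases, the CDK subunits *CKS1* (0.33 ± 0.07, adjusted p = 0.00499) and *CKS2* (0.30 ± 0.06, adjusted p = 0.00224) rose. Of 9 RBR1, E2F and DP factors, 1 fell, the atypical E2F factor *DEL2* (-0.58 ± 0.17, adjusted p = 0.0216), at 0.776 to 3.42 TPM in all libraries.

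No gene of 14 in DNA replication, 11 in mitosis and cytokinesis, 5 activators and inhibitors of the APC/C, the ligase that degrades mitotic cyclins, or 3 MYB3R factors passed over the 3 genotypes (limma), where 35.3% of all genes did. At an unadjusted p under 0.05 there was 1 in mitosis and cytokinesis and 1 of the APC/C list. Within *rev-5*, *PATRONUS1*, which protects cohesion in meiosis, rose (0.54 ± 0.15, adjusted p = 0.0396). It stood at 6.21 and 6.52 TPM in *rev-5* WL+FR and 4.26 and 3.84 TPM in *rev-5* WL. Between *rev-5* and Col-0, *KNOLLE*, the syntaxin of the cell plate, was lower in WL (-0.64 ± 0.06, adjusted p = 0.000548) and in WL+FR (-0.53 ± 0.06, adjusted p = 0.00195). *KNOLLE* was also lower in the libraries labelled *wox4* in the mean of both lights (-0.31 ± 0.04, adjusted p = 0.0104). It stood at 47.1 and 42.6 TPM in *rev-5* WL+FR, 41.4 and 40.9 TPM in *rev-5* WL, 54.7 and 54.9 TPM in *wox4* WL+FR, 48.1 and 51.2 TPM in *wox4* WL, 64.3 and 65.7 TPM in Col-0 WL+FR and 66.4 and 62.8 TPM in Col-0 WL. All libraries of both mutants were below all of Col-0. The replication clamp *PCNA2* was lower in *rev-5* in WL+FR (-0.62 ± 0.14, adjusted p = 0.0476). The list of mitosis and cytokinesis, of which *KNOLLE* is part, summed to 96.8 and 97.4 TPM in *rev-5* WL+FR against 119 and 129 TPM in Col-0 WL+FR. Most of this difference was *KNOLLE* itself.

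Some markers of tissues with dividing cells also moved with the light. Calls among these few markers stand against 28.1% of all tested genes higher and 7.19% lower in WL+FR over the 3 genotypes. Of 4 shoot apical meristem markers, *KNAT1* (1.25, adjusted p = 1.31e-07) and *STM* (0.58, adjusted p = 0.0210) rose, *WUS* was at 0 in 11 of 12 libraries and *CLV3* was listed at 0 in 4. The list summed to 34.5 to 40.9 TPM in WL+FR and 14.8 to 17.6 TPM in WL. Most of this sum was *KNAT1*, at 32.5 to 36.8 TPM in WL+FR and 12.7 to 15.8 TPM in WL. *STM* did not pass in *rev-5* (0.10), where 1.74 and 3.35 TPM in WL+FR overlapped with 1.69 and 2.83 TPM in WL. Of 4 stomatal lineage markers, *SPCH* (-0.40, adjusted p = 0.00409) and *TMM* (-0.33, adjusted p = 0.000776) fell, *FAMA* did not pass (-0.16) and *MUTE* was too low to be tested. The list summed to 24.2 to 31.3 TPM in WL+FR and 27.8 to 40 TPM in WL. Most of this sum was *TMM*, at 13.5 to 18.8 TPM in WL+FR and 15.6 to 24.0 TPM in WL. *TMM* was also lower in *rev-5* than in Col-0 in WL (-0.53, adjusted p = 0.00855) and in WL+FR (-0.38, adjusted p = 0.0495). Of 6 root markers *SHR* and *SCR* rose, while *PLT1*, *PLT2*, *COBL9* and *EXPA7* did not pass and had values of both signs. The list summed to 69.1 to 77.7 TPM in WL+FR and 57.6 to 66.4 TPM in WL. Most of this sum was *SCR* at 27.9 to 35.7 TPM and *SHR* at 18.8 to 32.3 TPM, and no other root marker exceeded 10.6 TPM. The 4 green leaf markers did not move together. *LHB1B1*, a light-harvesting protein gene with close copies, stood at 5760 to 6230 TPM in WL+FR and 17200 to 18400 TPM in WL (-1.58, adjusted p = 5.6e-12), and *RBCS1A* fell slightly (-0.12, adjusted p = 0.00511). *LHCB1.1*, a close copy of *LHB1B1*, had 0.05 over the 3 genotypes (adjusted p = 0.0387), a mean of unlike values. It rose in Col-0 (0.29, limma, adjusted p = 5.76e-05), fell in *rev-5* (-0.15, adjusted p = 0.00479) and had -0.01 in *wox4*. *LHCA1* did not pass over the 3 genotypes (-0.02, adjusted p = 0.606). The part of these changes in the values of the members was not tested.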

How the data were processed

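RNA of whole seedlings was sequenced by the authors as paired reads and aligned to TAIR10 with HISAT2, per the paper's methods, while the submitters' processing notes name FastQC, Bowtie2 and Cufflinks without versions or roles. Cufflinks-style gene tables with FPKM and its lower and upper bounds were deposited by the authors, 1 per library, each with 32824 genes on 32826 rows. Libraries were grouped by the genotype and light in the labels, with 2 biological replicates per group. Read totals are not given in the tables, and the number of fragments behind a value was read from the bounds, which cover counting error only.

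FPKM were divided by their sum per library and multiplied by 1000000 to give TPM. Genes averaging 0.5 TPM or more over the libraries were tested, 20020 in all. Their log2(TPM + 1) values entered a limma model (version 3.58.1, R 4.3.3) that gave each of 6 groups its own mean over all 12 libraries, with a trend in the spread. Of these genes, 18789 were above 0 in all libraries. A fold change on this scale understates changes of low genes. P values were adjusted after Benjamini and Hochberg over all tested genes, and a call is an adjusted p under 0.05 with no minimum fold change. The steps were tested on simulated data. Alternatives were a pseudocount of 0.1, no filter, FPKM, quantile normalization, no trend, genes above 0, the groups compared only, stricter thresholds and each library left out. Values per library are given for each member past the test in any of 10 comparisons (the mean of both lights was an alternative) and for the highest member of each family, and of other cell cycle lists for at most 3 genes past the test. *CDKA-1*, *CYCB1-1*, *CYCA2-2*, *CYCA2-3* and *CYCB1-4* were named after their values were seen. The members and lists were chosen with earlier results of these data known. The upstream window of 1 mitotic gene is not reported here and entered no motif count. Positions are 1-based, and the 40 members have the same start and end in the tables and in TAIR10.1. Spliced transcripts of CDKB1-1 and CDKB1-2 share an exact run of 41 bases, the longest within a family. Python 3.11.15 with pandas 2.3.3 and matplotlib 3.10.9 was used for tables and plots.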

Additional observations from a re-analysis of the deposited data

How the results depend on the processing

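No paired analysis was possible because the replicate numbers are not shared between groups. Over the 3 genotypes, *CDKB2-1*, *KRP2*, *CYCD1-1*, *CYCD3-2* and *CYCD3-3* kept their direction and call under every alternative at an adjusted p of 0.05. *CYCB1-3* and *KRP5* lost theirs with no filter, FPKM, quantile normalization or without the libraries labelled *wox4*, and *KRP4* with quantile normalization. The number of members past the test was 8 over the 3 genotypes, and 4 at an adjusted p under 0.01. At that threshold it was 0 in Col-0 (1 as reported), 2 in *rev-5* (5), 2 in *wox4* (5) and 0 for *rev-5* against Col-0 in WL (3). With an absolute log2 fold change over 1 added, after the study, it was 0 in all of these. With quantile normalization it was 4 in Col-0 and 1 for *rev-5* against Col-0 in WL+FR (0 as reported). With no trend it was 2 in Col-0, 3 in *wox4* and 1 for *rev-5* against Col-0 in WL. With genes above 0 it was 2 in Col-0 and 5 for *rev-5* against Col-0 in WL. With only the groups compared it was 1 in *rev-5*, 3 in *wox4* and 0 for *rev-5* against Col-0 in WL, and with no filter 3 in *wox4*. In the mean of both lights it was 5 for *rev-5* against Col-0, against 3 in WL and 0 in WL+FR. Leaving out 1 library gave 0 to 2 members in Col-0, 2 to 6 in *rev-5*, 2 to 5 in *wox4* and 0 to 3 for *rev-5* against Col-0 in WL. A group left with 1 library was assumed to vary like the others. No call reversed. The value of *CYCB1-2* over the 3 genotypes, which did not pass, was -0.05 to 0.03 without single libraries. Of the values under an alternative of genes past the test and of the highest member of each family, 385 were unchanged in whether they passed, 91 lost a call and 2 gained one (*CYCA3-2*). The unchanged values include those of genes that did not pass in the first place, such as *CYCB1-2* and *CDKB1-1*, so that 385 is not a number of calls kept. *CYCB1-4*, *CYCA2-2* and *CYCA2-3* passed over the 3 genotypes when certain single libraries were left out, and *CYCB1-4* also with genes above 0 and *CYCA2-3* with no trend or quantile normalization. The cause of these differences was not tested. Members with few fragments had wide intervals, and small changes in them could not be seen at this depth.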
